A study of Mus musculus with 6 samples.

Results

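Aminoacyl-tRNA synthetases are the enzymes that join each amino acid to its transfer RNA, the step that gives the genetic code its meaning during translation. The genes described here were taken by gene symbol: the cytosolic and mitochondrial synthetases, from Aars for alanine to Yars for tyrosine, together with the phenylalanine enzyme's subunits Farsa and Farsb and the scaffold proteins Aimp1, Aimp2 and Eef1e1. The rule found 40 genes among the 20263 genes measured. They fall into 4 roles. Of the 40 genes, 12 encode cytosolic enzymes that work outside the large synthetase complex, 8 encode synthetases of that complex, 3 encode its scaffolds and 17 encode mitochondrial enzymes.

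Expression was measured with a 1-colour array in regenerating prostates of 3 Gli1-/- mice and 3 wild-type mice. Gli1 is a transcription factor at the end of the Hedgehog signalling pathway, and the labels give the genotype for the mouse as a whole. All 6 mice were castrated at 8 weeks of age, received a testosterone pellet under the skin 2 weeks later, and were 10 weeks old per the labels. The ventral and dorsolateral lobes were taken 3 days after the pellet, and each sample came from 1 mouse. The sources used here do not give the strain or say which stretch of Gli1 the mutant lacks. All groups share the castration and the androgen return, and prostates of intact or untreated castrated mice are not analysed here.

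Castration shrinks the prostate, and androgen makes the luminal secretory cells grow again and resume making large amounts of secreted protein. Charged transfer RNA is needed in proportion to that work. In mammalian cells, uncharged transfer RNA activates the kinase Gcn2, which slows general translation while raising the transcription factor Atf4. Atf4 in turn raises many cytosolic synthetase genes together with genes of amino acid synthesis and transport. Separately, 8 of the cytosolic enzymes are held with 3 scaffolds in 1 multi-synthetase complex, and the mitochondrion mostly uses its own nuclear-encoded set.

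The probe set for Gli1 read 6.34, 6.27 and 6.29 log2 units in the Gli1-/- mice 1, 2 and 3, against 6.28, 6.48 and 6.51 in the wild-type mice 1, 2 and 3. The groups overlapped, with a difference of -0.12 (SE 0.10; limma adjusted p = 0.732), so this probe set did not separate the genotypes. A probe outside the deleted part would check nothing. The tissue label was borne out by the 12 luminal secretory markers, whose mean log2 level was 11.64 to 11.84 in Gli1-/- and 12.09 to 12.42 in wild-type prostates. Several lists of cell type markers leaned one way, although no marker in them had a limma adjusted p under 0.05. All 15 measured macrophage markers had higher means in the mutants (mean level 8.58 to 9.09 in Gli1-/-, 8.05 to 8.44 in wild type), and all 11 smooth muscle markers had lower ones (9.53 to 9.94 in Gli1-/-, 10.01 to 10.51 in wild type). All 12 mitosis genes also had lower means in the mutants (7.66 to 8.51 in Gli1-/-, 8.29 to 8.74 in wild type), while all 10 skeletal muscle markers had higher ones (6.99 to 8.36 in Gli1-/-, 6.48 to 7.38 in wild type). Of the 10 fibroblast markers, 9 had higher means in the mutants (9.24 to 9.69 in Gli1-/-, 8.99 to 9.19 in wild type). All 8 endothelial and 7 of 8 basal epithelial markers had higher means too. The mean levels of the luminal secretory, macrophage, smooth muscle, fibroblast and lymphocyte lists did not overlap between the genotypes. Those of the mitosis, skeletal muscle, endothelial, basal epithelial and urothelial lists did. The 9 measured seminal vesicle genes varied by mouse instead, with a mean level of 5.83 in Gli1-/- mouse 2 and 6.27 in wild-type mouse 3. In the other mice it was 4.35 to 4.76. In whole lobes, fewer cells of a type and less RNA per cell cannot be told apart, and the part of these markers in the results below was not tested.

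No synthetase or scaffold gene passed the test between Gli1-/- and wild-type prostates. With limma and Benjamini-Hochberg adjustment over all genes, 0 of the 40 had an adjusted p under 0.05, where 0.0197% of all genes did (0.00987% in each direction). At an unadjusted p under 0.05 there were 2 of 40, Vars and Gars, where 10.5% of all genes reached that level. In 3 of 40 genes the mutant and wild-type values did not overlap, where 14.3% of all genes were so separated. Vars and Vars2, the cytosolic and mitochondrial valine enzymes, were the 2 genes higher in all 3 mutants, where 8.34% of all genes were, and Gars, the glycine enzyme, was the 1 gene lower in all 3, where 6.01% of all genes were. With limma's weights per array, 8 of the 40 passed, and 23.1% of all genes did so too.

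The differences were small. The median log2 difference, Gli1-/- minus wild type, was -0.02 over the 40 genes and 0.00 over all genes, with 16 positive and 24 negative values, where 48.5% of all genes were positive. In 35 of the 40 the difference was within 0.2 log2 units of 0, and 72.6% of all genes were within that distance. The median was 0.01 for the free cytosolic enzymes, -0.02 for the synthetases of the complex, -0.18 for the scaffolds and -0.01 for the mitochondrial enzymes. Leaving Vars aside, the 95% intervals of the other 39 genes together reached down to -0.83 and up to 0.49. The median SD between mice of a group was 0.128 log2 units for these genes and 0.152 for all genes.

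**Figure D1:**
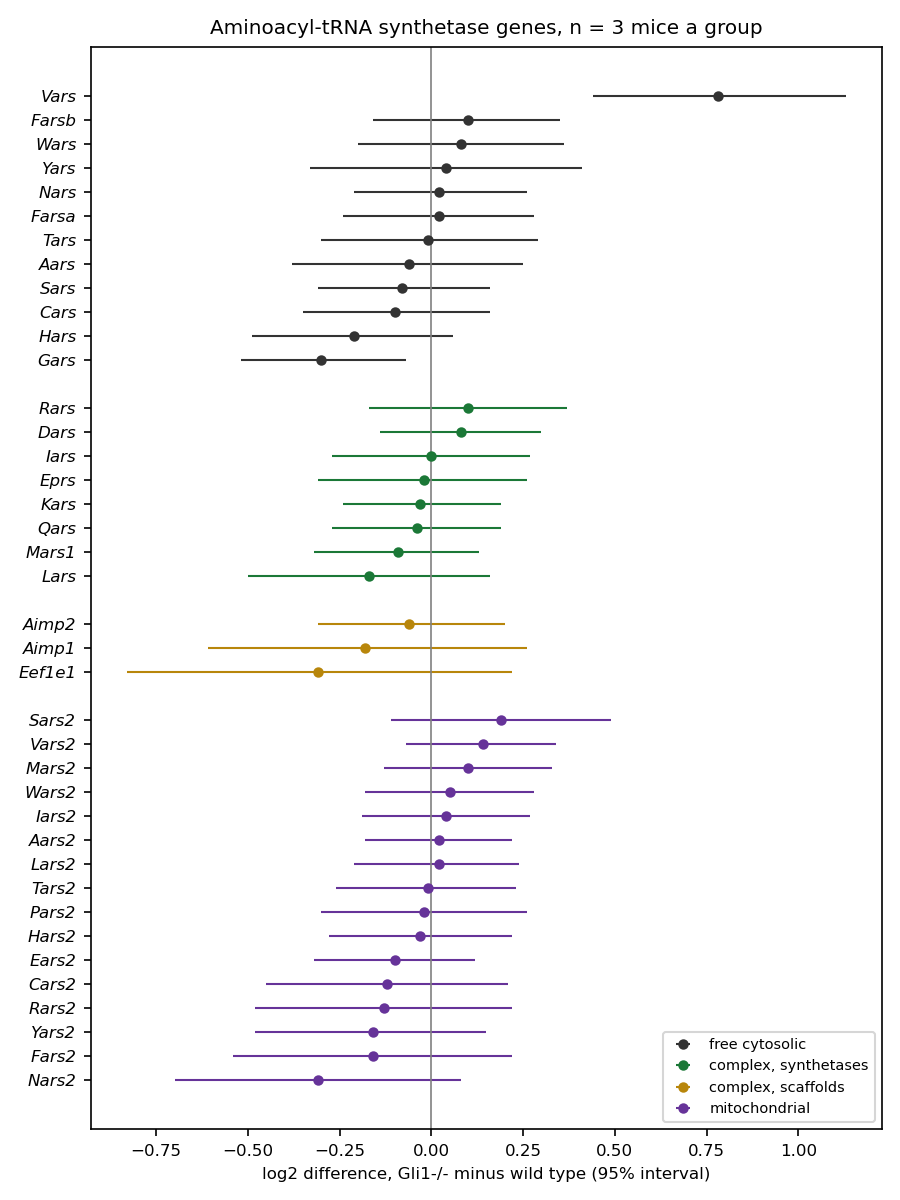
Log2 difference, Gli1-/- minus wild type, of 39 of the 40 genes (points) with its 95% interval from limma (lines), grouped and coloured by role. Vars stands at 0.78, and the others lie between -0.31 and 0.19.

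Vars encodes valyl-tRNA synthetase, which in mammalian cells associates with the elongation factor 1 complex instead of the multi-synthetase complex. Its log2 level was 10.07, 9.90 and 9.93 in the 3 Gli1-/- mice, against 9.51, 9.04 and 9.00 in the 3 wild-type mice. Every mutant lay above every wild-type mouse, and wild-type mouse 1 was nearest to the mutants. The means were 9.97 ± 0.09 in Gli1-/- and 9.18 ± 0.28 in wild type (SD, n = 3 each). The difference of 0.78 (SE 0.15, 95% interval 0.44 to 1.13), or 1.72-fold (1.35 to 2.19), had a limma adjusted p of 0.153. Vars thus missed the threshold, and 119 genes, 0.587% of all, had a p at or below its own. As an alternative, array weights gave 0.90 and an adjusted p of 0.0043, while leaving out each mouse in turn gave 0.69 to 0.95 with adjusted p between 0.0711 and 0.419.

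Vars can be set beside the middle of the other genes mouse by mouse. Relative to its own mean over the 6 mice, Vars stood at 0.50, 0.32 and 0.36 in the mutants and at -0.06, -0.54 and -0.58 in the wild-type mice. The median of the other 39 genes, centred likewise, stood at -0.08, 0.10 and -0.01 in the mutants and at 0.03, 0.00 and -0.06 in the wild-type mice. A median over many centred genes lies near 0 by construction, and single genes lay farther out. Among the subunits of elongation factor 1, Eef1b2, which helps to reload the factor with GTP, differed by -0.31 (SE 0.18; limma adjusted p = 0.594). Its values were 10.90, 11.24 and 11.01 in Gli1-/- and 10.97, 11.56 and 11.55 in wild type, with overlapping groups. Eef1d, of the same exchange complex, differed by -0.15 (SE 0.15). Eef1g differed by -0.04 (SE 0.14), with a sign that turned when single Gli1-/- mice were left out, and Eef1a1, which carries charged transfer RNA to the ribosome, by -0.09 (SE 0.10), or 0.06 after quantile normalization.

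Vars lies in a gene-dense stretch of mouse chromosome 17, and its neighbours were read after the Vars values had been seen. Lsm2 on one side, an RNA-binding protein of the splicing and decay machinery, differed by -0.05 (SE 0.14), and Vwa7 on the other side by -0.01 (SE 0.15). The signs of both turned when single mice were left out. Over the 5 nearest measured genes on each side, differences ran from -0.71 for Hspa1a to 0.31 for Hspa1l, both heat shock proteins, and the groups overlapped in all 10, where 14.3% of all genes had separate groups. Mars1, the methionine enzyme, is the synthetase nearest to Gli1 itself, with Arhgap9 as the measured gene between them on chromosome 10. It read 8.51, 8.57 and 8.50 in Gli1-/- mice, against 8.73, 8.62 and 8.52 in wild-type mice, a difference of -0.09 (SE 0.10). Ddit3, which encodes the stress factor Chop and is the next measured gene beyond Mars1, differed by -0.55 (SE 0.14; limma adjusted p = 0.255), with every mutant below every wild-type mouse.

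**Figure D2:**
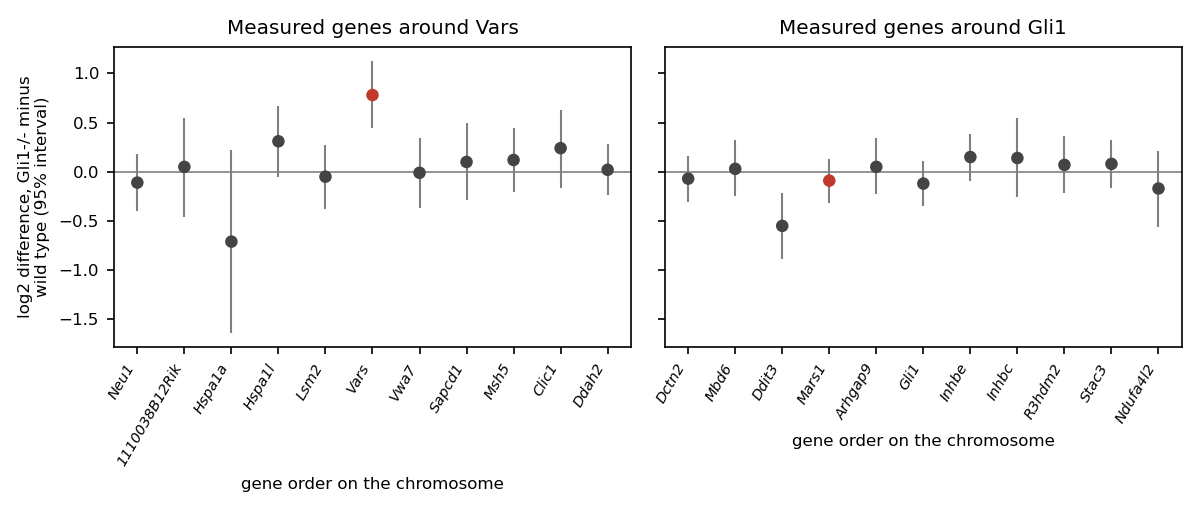
Log2 difference, Gli1-/- minus wild type, with 95% limma intervals, of the 5 measured genes on each side of Vars (left panel) and of Gli1 (right panel), in chromosome order and not to scale, with Vars and Mars1 in red. Vars stands at 0.78 between Lsm2 at -0.05 and Vwa7 at -0.01, while Mars1 at -0.09 lies between Ddit3 at -0.55 and Arhgap9.

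Gars, glycyl-tRNA synthetase, is made from 1 gene for both the cytosol and the mitochondrion. Its level was 10.15, 10.32 and 10.17 in Gli1-/- mice, against 10.51, 10.44 and 10.58 in wild-type mice. All 3 mutants lay below all 3 wild-type mice, and Gli1-/- mouse 2 and wild-type mouse 2 were nearest to each other. The difference was -0.30 (SE 0.10, 95% interval -0.52 to -0.07), which is 0.81-fold, with a limma adjusted p of 0.36. Over the alternatives the difference stayed between -0.35 and -0.26, with limma adjusted p between 0.0238 and 0.781, and array weights gave the lowest of these.

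Hars, the histidine enzyme, differed by -0.21 (SE 0.12; limma adjusted p = 0.589). Its 3 wild-type values were nearly equal at 9.18, 9.19 and 9.18, while the mutants were spread over 8.83, 9.20 and 8.89, so the groups overlapped through Gli1-/- mouse 2. Wars, the tryptophan enzyme, is induced by interferon gamma in human cells. It read 11.78, 11.61 and 11.98 in Gli1-/- mice, against 11.77, 11.75 and 11.62 in wild-type mice, a difference of 0.08 (SE 0.12) that was -0.02 without Gli1-/- mouse 3. The 3 probe sets of Wars differed by 0.08 to 0.09.

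The 13 other genes of an interferon gamma list all had positive differences, with a median of 0.48, although 0 of 13 passed the limma test. Of the 13, 8 had an unadjusted p under 0.05 on the higher side, where 5.93% of all genes did. Ido1, which breaks down tryptophan, read 5.72, 5.83 and 5.83 in Gli1-/- mice, against 4.96, 5.11 and 5.25 in wild-type mice. That difference was 0.69 (SE 0.11; limma adjusted p = 0.101). The chemokine Cxcl9 differed by 0.60 (SE 0.17) and the transcription factor Irf1 by 0.25 (SE 0.12). Wars, an interferon gamma gene in human cells, thus had overlapping groups here beside 9 of 13 list genes whose groups did not overlap, where 8.34% of all genes were higher in all 3 mutants. The macrophage marker levels given above leaned in the same direction as this list. So did 9 of 12 lymphocyte markers, of which 5 had separate groups and 0 passed the limma test, with mean levels of 5.97 to 6.20 in Gli1-/- and 5.74 to 5.85 in wild-type prostates. The part of either cell type in these values was not tested.

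**Figure D3:**
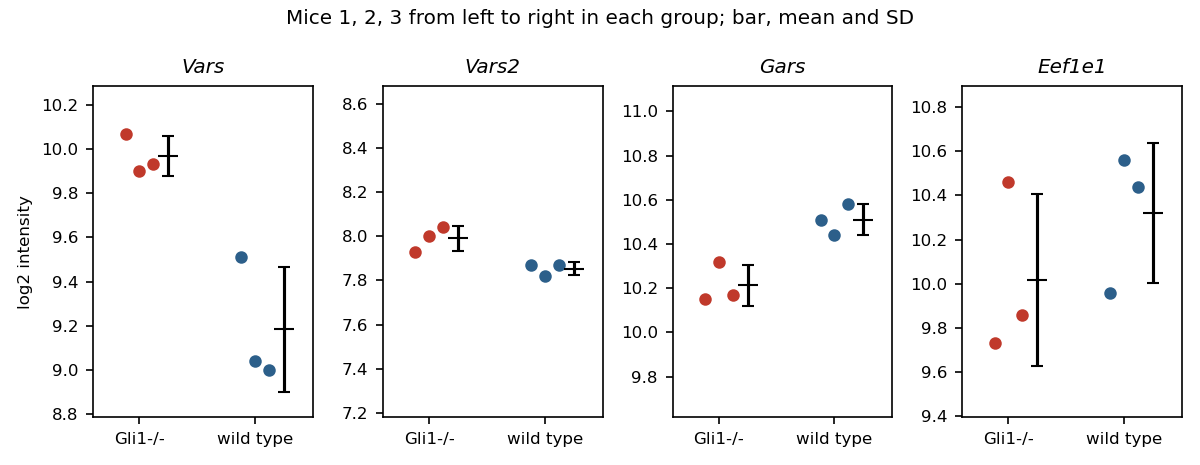
Log2 intensity of Vars, Vars2, Gars and Eef1e1 in each mouse (points, mice 1, 2 and 3 from left to right), with the mean and SD of the 3 mice of each group beside them. For Vars and Vars2 the Gli1-/- mice all lie above the wild-type mice, for Gars all below, and for Eef1e1 the groups overlap.

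The other free cytosolic enzymes differed by -0.10 to 0.10. Farsb, the subunit of phenylalanyl-tRNA synthetase that pairs with Farsa, read 9.50, 9.72 and 9.76 in Gli1-/- mice, with a difference of 0.10 (SE 0.11). Cars, for cysteine, differed by -0.10 (SE 0.11) and Sars, for serine, by -0.08 (SE 0.10). Nars, for asparagine, differed by 0.02 (SE 0.10), with a sign that turned when single mice were left out. In each of these genes the groups overlapped.

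The 8 synthetases of the complex differed by -0.17 to 0.10, and in none of them were the groups separate. The largest difference was that of Lars, the leucine enzyme, which in human cells also reports leucine to the growth kinase mTORC1. Lars read 9.10, 9.15 and 9.29 in Gli1-/- mice, against 9.65, 9.22 and 9.18 in wild-type mice, a difference of -0.17 (SE 0.14; limma adjusted p = 0.736). Wild-type mouse 1 had the highest value, and without that mouse the difference was -0.02. Rars, for arginine, differed by 0.10 (SE 0.12), and Eprs, a fused enzyme for glutamate and proline, by -0.02 (SE 0.12). Dars, for aspartate, differed by 0.08 (SE 0.10) by its brighter probe set and by -0.08 by the other one, so its direction rests on the probe set chosen.

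The 3 scaffolds had the lowest median of the 4 roles, and none passed the test. Eef1e1, also called Aimp3 and known to bind the methionine enzyme, read 9.73, 10.46 and 9.86 in Gli1-/- mice, against 9.96, 10.56 and 10.44 in wild-type mice. Its groups overlapped, and the difference of -0.31 (SE 0.22, 95% interval -0.83 to 0.22) had a limma adjusted p of 0.693. Aimp1, the precursor of a secreted cytokine as well as a scaffold, read 7.40, 7.95 and 7.45 in Gli1-/- mice, against 7.49, 8.01 and 7.85 in wild-type mice, a difference of -0.18 (SE 0.19). Aimp2, which holds the core of the complex together, differed by -0.06 by both of its probe sets.

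The scaffolds differed more between mice of a group than between the groups. All 3 were lowest in Gli1-/- mouse 1, where 21.1% of all genes were lowest. Their mean log2 level was 8.71, 9.23 and 8.78 in Gli1-/- mice, against 8.85, 9.26 and 9.15 in wild-type mice. A list of 53 cytosolic ribosomal protein genes, added after the data had been seen, had mean levels of 8.48, 8.83 and 8.46 in Gli1-/- mice, against 8.47, 8.96 and 9.07 in wild-type mice. Both lists were low in Gli1-/- mice 1 and 3 and in wild-type mouse 1. In these mice the elongation factor genes (8.95, 9.05 and 9.02) and the mitochondrial enzymes (7.87, 7.94 and 7.95) were also at their lowest. The other mice stood at 9.15 to 9.18 and at 7.98 to 8.09. The cytosolic synthetases, highest in wild-type mouse 1, did not share this order. The part of any of these groups in the others was not tested.

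The 17 mitochondrial enzymes showed no separation by genotype either, apart from Vars2. Vars2 read 7.93, 8.00 and 8.04 in Gli1-/- mice, against 7.87, 7.82 and 7.87 in wild-type mice. The groups were apart, yet the difference of 0.14 (SE 0.09) had a limma adjusted p of 0.646. Nars2, the mitochondrial asparagine enzyme, had the lowest difference, at -0.31 (SE 0.17; limma adjusted p = 0.583). It read 7.86, 8.37 and 8.12 in Gli1-/- mice, against 8.20, 8.68 and 8.39 in wild-type mice, and the groups overlapped.

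Among the other mitochondrial enzymes, Sars2, for serine, read 7.62, 7.70 and 7.70 in Gli1-/- mice, against 7.73, 7.28 and 7.44 in wild-type mice. Its wild-type range enclosed the mutants, and the difference was 0.19 (SE 0.13). Yars2, for tyrosine, and Fars2, for phenylalanine, each differed by -0.16 (SE 0.13 and 0.16). Rars2, for arginine, differed by -0.13, Cars2, for cysteine, by -0.12, Ears2, for glutamate, by -0.10 and Mars2, for methionine, by 0.10. Of the 17 enzymes, 8 were highest in Gli1-/- mouse 2, where 16.7% of all genes were highest.

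A cytosolic and a mitochondrial gene that share a symbol root, such as Vars and Vars2, made 14 pairs. Phenylalanine, glutamate and proline, whose cytosolic enzymes are Farsa with Farsb and the fused Eprs, are outside this count. Their differences had the same sign in 6 pairs and opposite signs in 8. The valine pair was the one pair in which both genes had groups that did not overlap, with Vars at 0.78 and Vars2 at 0.14. Both valine genes lie on chromosome 17, as does Aars2, which differed by 0.02 with overlapping groups. The part of the shared chromosome in the values of the valine pair was not tested. The asparagine pair had 0.02 for Nars and -0.31 for Nars2, and the serine pair -0.08 for Sars and 0.19 for Sars2.

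**Figure D4:**
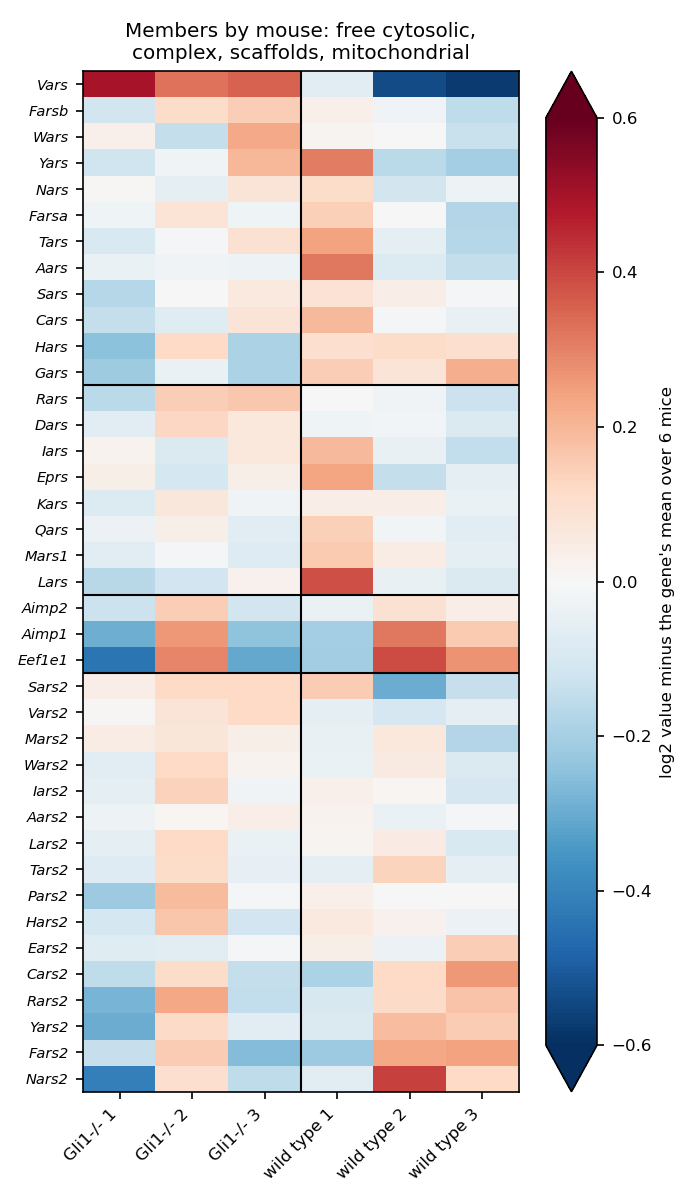
Log2 level of 39 of the 40 genes in each mouse minus that gene's mean over the 6 mice, from blue (lower) to red (higher), with lines between the free cytosolic enzymes, the synthetases of the complex, the scaffolds and the mitochondrial enzymes. Vars is high in the 3 Gli1-/- mice, while wild-type mouse 1 is high in most cytosolic synthetases and low in the scaffolds.

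In the cytosolic synthetases the wild-type mice differed among themselves by more than the genotypes did. Their mean log2 level was 9.77, 9.84 and 9.87 in Gli1-/- mice, against 9.96, 9.78 and 9.73 in wild-type mice. Of the 20 genes, 12 had their highest value in wild-type mouse 1, where 12.8% of all genes had theirs, and 16 were highest in that mouse among the wild-type mice, where 27.9% of all genes were. The mitochondrial enzymes did not share this, with 1 of 17 highest in wild-type mouse 1. The median difference of the 20 cytosolic synthetases was -0.02 with all mice and 0.08 without wild-type mouse 1. This order of the mice was noticed in the values and is given as a description.

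Atf4 and its partners bind a short element made of part of a C/EBP site and part of an ATF site, and TGATGCAA is its common form. The RefSeq promoter table (build GRCm38.p6, 250 bases before to 50 after the gene start) held 30 of the 40 genes. TGATGCAA, searched on both strands (TTGCATCA on the other), occurred in 4 of the 30, where 0.895% of all 32851 promoters held it. A looser form, TGATGNAA, which includes the first, occurred in 5 of the 30 and in 3.97% of all promoters, and the further gene was Gars. The windows of 30 bases below are from 3 genes with the exact form and from Gars, and are shown so that the matched letters can be read in their surroundings. They are read 5′ to 3′ along the gene's strand, with the matched letters in capitals: Iars (chr13:49682126-49682155, plus strand), Tars (chr15:11399655-11399684, minus strand), Yars (chr4:129189895-129189924, plus strand) and, with the looser form, Gars (chr6:55037960-55037989, plus strand).
Iars: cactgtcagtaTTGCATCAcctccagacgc
Tars: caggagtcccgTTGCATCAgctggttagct
Yars: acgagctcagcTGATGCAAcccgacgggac
Gars: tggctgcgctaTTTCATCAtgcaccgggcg
The match begins 15 bases before the gene start in Tars and 30 before it in Gars, and just past the start in Iars and Yars. A match is a description of these letters and not a shown binding site.

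The 4 genes with TGATGCAA were each highest in wild-type mouse 1 and lowest in wild-type mouse 3, an order that 4.98% of all genes had. Some genes without a match had this order too, and a link between the order and the element was not tested. Of all 133 measured genes with TGATGCAA in a promoter, 20 (15%) were highest in wild-type mouse 1, and 9 (6.77%) had the full order. These counts include the 4 genes themselves. Of the 16 other cytosolic synthetases, 8 were highest in wild-type mouse 1, and 2 of them, Farsa and Qars, had the full order. These 16 include Cars, Hars, Lars, Nars, Rars, Vars and Wars, whose promoters were not searched. They are therefore not a set of genes known to lack the element. Among the Atf4 list genes that are no synthetases, 8 held TGATGCAA and 3 of these were highest in wild-type mouse 1, while Nupr1 and Chac1 were highest in Gli1-/- mouse 3. Aars, for alanine, read 9.41, 9.43 and 9.42 in Gli1-/- mice, against 9.77, 9.37 and 9.31 in wild-type mice. Iars, for isoleucine, read 9.91, 9.80 and 9.95 in Gli1-/- mice, against 10.08, 9.84 and 9.74 in wild-type mice. Tars, for threonine, read 9.38, 9.46 and 9.56 in Gli1-/- mice, against 9.71, 9.41 and 9.30 in wild-type mice. Yars, for tyrosine, read 9.53, 9.63 and 9.85 in Gli1-/- mice, against 9.96, 9.49 and 9.45 in wild-type mice. In each of these 4 genes the mutants lay inside the wild-type range. The differences between genotypes were -0.06 (SE 0.13) for Aars, 0.00 (SE 0.12) for Iars, -0.01 (SE 0.13) for Tars and 0.04 (SE 0.16) for Yars. Without wild-type mouse 1 they were 0.08 for Aars, 0.10 for Iars, 0.11 for Tars and 0.20 for Yars. Gars, with the looser form, had its highest value in wild-type mouse 3 and so did not follow this order.

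Other elements were searched in the same promoters. CACGTG, the E-box bound by Myc and by Clock factors, occurred in 5 of 30 genes, Aars, Ears2, Farsb, Iars and Tars, and in 7.15% of all promoters. The palindromic element of nuclear respiratory factor 1 occurred in 6 of 30, Eef1e1, Farsb, Iars2, Kars, Mars2 and Tars, and in 4.6% of all promoters.
The 10 genes whose promoters were not analysed here include Vars, Cars, Hars, Hars2, Lars, Nars, Pars2, Rars and Wars.

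**Figure D5:**
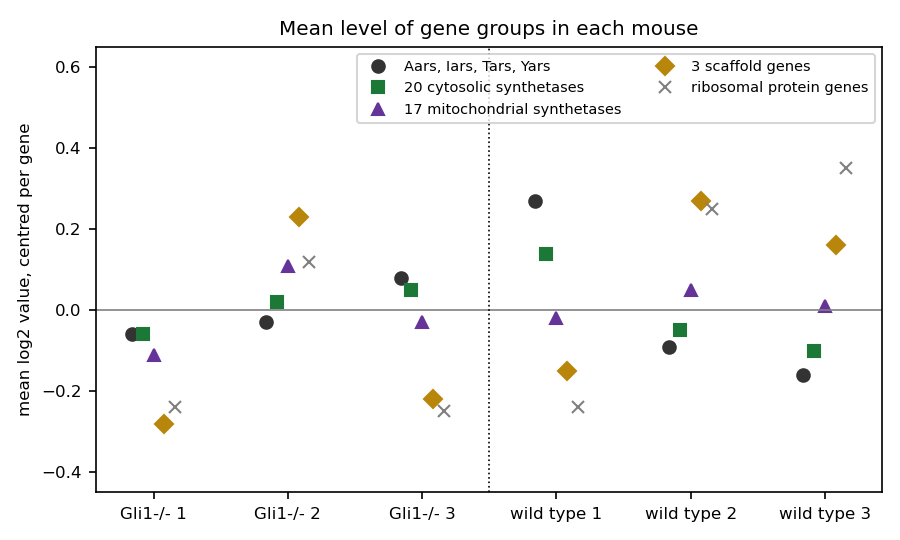
Mean of log2 levels, each gene centred on its mean over the 6 mice, of 5 gene groups in each mouse, Gli1-/- left of the dotted line and wild type right of it. The 4 genes with TGATGCAA (Aars, Iars, Tars and Yars) stand at 0.27 in wild-type mouse 1 and at -0.16 in wild-type mouse 3, while the scaffolds and ribosomal protein genes are low in Gli1-/- mice 1 and 3 and in wild-type mouse 1.

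The other genes of the Atf4 pathway were read from a list of 37, of which 36 were measured. With limma, 0 of 36 passed. At an unadjusted p under 0.05, 1 was higher and 5 were lower in Gli1-/- prostates, where 5.93% and 4.58% of all genes were. The list's median difference was -0.03. Atf4 itself read 8.36, 8.76 and 8.64 in Gli1-/- mice, against 8.79, 9.06 and 8.97 in wild-type mice, every mutant below every wild-type mouse, with a difference of -0.35 (SE 0.13; limma adjusted p = 0.426). Its protein is mainly controlled by translation, so the transcript level is a partial readout of the pathway.

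Mthfd2, a mitochondrial folate enzyme, read 9.54, 9.65 and 9.85 in Gli1-/- mice, against 10.26, 10.22 and 10.09 in wild-type mice, a difference of -0.51 (SE 0.11; limma adjusted p = 0.221). Gpt2, a mitochondrial alanine aminotransferase, read 9.75, 10.06 and 9.93 in Gli1-/- mice, against 10.43, 10.30 and 10.62 in wild-type mice, a difference of -0.54 (SE 0.13). Nupr1, a stress-induced nuclear protein, went the other way, with 10.23, 10.24 and 10.52 in Gli1-/- mice, against 9.98, 9.86 and 9.53 in wild-type mice. In all of these the groups were apart and the test was missed. Psat1, an enzyme of serine synthesis, differed by -0.36 (SE 0.14). Asns, asparagine synthetase and a classical Atf4 target, read 9.64, 9.76 and 10.17 in Gli1-/- mice, against 10.14, 9.87 and 9.85 in wild-type mice, a difference of -0.10 (SE 0.16) with a sign that turned when Gli1-/- mouse 1 was left out. Of the 36 list genes, 13 were highest in wild-type mouse 1, where 12.8% of all genes were, and 10 were lowest in Gli1-/- mouse 1, where 21.1% of all genes were.

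Upstream of Atf4, a list of the kinases that phosphorylate translation factor eIF2 and of its regulators had 15 measured genes, 0 of which passed, at either threshold, with a median of -0.09. Eif2b1, a subunit of the factor that reloads eIF2, differed by -0.30 (SE 0.14) and Eif2ak2, the kinase activated by double-stranded RNA, by 0.24 (SE 0.13). The 13 elongation factor genes had a median of -0.07, and 16 genes of transfer RNA editing, mitochondrial glutamine charging and selenocysteine charging a median of -0.04. In both lists 0 genes passed at either threshold. With array weights, which called 23.1% of all genes, 13 genes of the Atf4 list, 4 of the eIF2 list, 1 elongation factor and 5 genes of the transfer RNA list passed.

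Protein folding genes of the endoplasmic reticulum, which serve the same secretory output, were lower in their means in 14 of 15 cases, with a median of -0.24. With limma 0 of 15 passed, and 7 had an unadjusted p under 0.05 on the lower side, where 4.58% of all genes did. Pdia6, a disulphide isomerase, read 12.13, 12.18 and 12.22 in Gli1-/- mice, against 12.44, 12.50 and 12.57 in wild-type mice, a difference of -0.33 (SE 0.09; limma adjusted p = 0.278). Edem1, which sends misfolded glycoproteins for degradation, differed by -0.30 (SE 0.09) and Herpud1, of the same degradation route, by -0.38 (SE 0.11). The mean level of the luminal secretory markers given above was lower in the mutants as well. Of these 12 markers, 10 had lower means and 2, the keratins Krt8 (0.22) and Krt18 (0.07), had higher ones. The part of these markers in the endoplasmic reticulum list's values was not tested. The median over the 20 cytosolic synthetases was -0.02 beside the endoplasmic reticulum list's -0.24.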

How the data were processed

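RNA from 6 prostates was labelled with biotin and hybridised to 1-colour arrays, 1 mouse an array. The log2 intensities were used as deposited, and RMA and Partek are named, without role or version, per the submitters' processing notes. The sources used here do not give the array's model or the build of its probe sets. Of 32025 probe sets, 25343 (79.1%) matched 1 gene through RefSeq accessions, giving 20263 genes, each represented by its brightest probe set. Sample medians were 6.76 to 6.95. Limma 3.58.1 in R 4.3.3 fitted Gli1-/- minus wild type, two-sided, with Benjamini-Hochberg adjustment over all genes. The scripts were tested on simulated data with 50 genes changed at each size. At an adjusted p under 0.05 the limma fit recovered 36% of the 1.5-fold and 80% of the 2-fold changes. It called 0.02% of the unchanged genes.

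All 40 genes lay above the 30th percentile of intensity (log2 5.6). Named with values in every mouse were up to 6 genes of each role and up to 4 of each list with the smallest p, besides defining genes of the lists. Neighbours, ribosomal proteins and genes with promoter matches were added after their values were seen. The members and lists were chosen with earlier results of these data known. Motif and promoter sequences are from RefSeq, GRCm38.p6. Alternatives were leaving out each mouse, quantile normalization, array weights, a replicate block, median centring, the mean of a gene's probe sets, the filter on dim probe sets, and robust variance with a trend on intensity. The number of arrays limits the precision. Some items were left out and are not reported here.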

Additional observations from a re-analysis of the deposited data

How the results depend on the processing

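Array weights moved the most results: 8 synthetase or scaffold genes had an adjusted p under 0.05 and 13 an unadjusted one (39.5% of all genes did), and 13 genes of the Atf4 list, 5 of the interferon gamma list, 7 of the endoplasmic reticulum list, 4 of the eIF2 list, 1 elongation factor and 5 genes of the transfer RNA list passed. The weights did not fully converge and rested mainly on wild-type mouse 2 (7.22) and Gli1-/- mouse 3 (2.26). Under them the sign turned for Aars (0.03), Tars (0.08), Eprs (0.13), Mars2 (-0.01), Asns (0.10), Eef1g (0.14) and Vwa7 (0.06), and with quantile normalization for Eef1a1 (0.06). Quantile normalization gave 6 genes whose groups did not overlap (16.6% of all genes) and an endoplasmic reticulum median of -0.16. The other probe set of Dars, an alternative chosen after seeing the data, gave -0.08. Leaving out each mouse kept 0 genes past the adjusted threshold, with 1 to 5 at the unadjusted one, 4 to 13 whose groups did not overlap, and a cytosolic synthetase median of -0.07 to 0.08. Fewer mice raise the share of separate groups over all genes too. Without Gli1-/- mouse 2 there were 5 and 13 such genes (13.4% and 30.1% of all genes), and without wild-type mouse 1 there were 4 and 11 (17.1% and 36% of all genes). Without Gli1-/- mouse 1 there were 1 and 6 (6.87% and 20.5% of all genes), and without Gli1-/- mouse 3 likewise 1 and 6 (7.48% and 20.4%). Without wild-type mouse 2, 5 had separate groups (19.2% of all genes). The signs of Wars (-0.02 to 0.17), Nars (-0.03 to 0.08), Aars (-0.15 to 0.08), Tars (-0.09 to 0.11), Yars (-0.06 to 0.20), Eprs (-0.10 to 0.09), Asns (-0.26 to 0.01), Lsm2 (-0.20 to 0.03), Eef1g (-0.20 to 0.05) and Vwa7 (-0.14 to 0.16) turned in that range. The cause of these changes was not tested, beyond the smaller number of mice.

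The labels name no pairing of mice with the same number. Their deviations correlated at 0.16, 0.25 and -0.15, and those of mice with different numbers at -0.32 to 0.25. With 3 mice a group these values cannot show whether the mice were paired. With the replicate number as a block, Vars differed by 0.78 (limma adjusted p = 0.0867) and 0 genes of the set passed. Of 257 counts and medians over all alternatives, 237 stayed near their value. With 3 mice a group, differences of the size seen in most of these genes lie within the spread between mice. The mean levels of luminal secretory, macrophage, smooth muscle, fibroblast and lymphocyte markers did not overlap between the genotypes.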
